A study of Saccharomyces cerevisiae with 8 samples.

Results

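The genes described here are 8 budding yeast genes that encode or assist the factors of translation elongation: TEF1, TEF2, EFT1, EFT2, YEF3, TEF4, CAM1 and HYP2. They were chosen by name from the 6002 protein-coding nuclear genes of the R64 annotation. The rule used no measured value, but the choice was made with earlier results of these data known. Each was represented by its start peak, the highest CAGE-seq peak on the gene's strand whose 5′ end lay between 300 bp upstream and 50 bp downstream of the start codon. CAGE-seq (cap analysis gene expression) sequences the capped 5′ ends of RNA, so the peak marks where transcripts of the gene begin and its height counts their 5′ ends. Of the 8 genes, 7 had a start peak in all 8 libraries and TEF4 had none in any, whereas 1190 of all 6002 genes had one in every library.

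The libraries came from BY4741, a haploid laboratory strain, in 4 groups of 2 replicate colonies. All cells carried a synthetic locus, either synHPRT1 (human HPRT1, here HPRT1) or synHPRT1R (the same sequence reversed but not complemented, here HPRT1R). In the episome groups the locus was held on a YAC, a yeast artificial chromosome, and the cultures were grown in SC-Leu, a synthetic medium without leucine. In the integrated groups it had been placed in chromosome XI and the cultures were grown in YPD, a rich medium. Cells were grown at 30 °C for 6 h to an OD of about 0.6. The medium and the context of the locus therefore changed together and cannot be told apart, and no group lacked a synthetic locus.

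During elongation, eEF1A, encoded by TEF1 and TEF2, carries aminoacyl-tRNA to the ribosome in its GTP form. The eEF1B complex exchanges the bound GDP: EFB1 encodes its catalytic subunit, and TEF4 and CAM1 encode 2 forms of its gamma subunit. eEF2, encoded by EFT1 and EFT2, drives translocation of the ribosome along the mRNA and carries diphthamide, a modified histidine that is the target of diphtheria toxin. Fungi also need eEF3, an ATPase encoded by YEF3 that helps release the spent tRNA. HYP2 encodes eIF5A, which carries the modified lysine hypusine and aids peptide bond formation at stalling sequences.

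All 8 genes lie on the forward strand. In R64 coordinates TEF1 (YPR080W) lies at chrXVI:700594-701970 and TEF2 (YBR118W) at chrII:477671-479047. EFT1 (YOR133W) lies at chrXV:575098-577626 and EFT2 (YDR385W) at chrIV:1243230-1245758. YEF3 (YLR249W) lies at chrXII:636780-639914, CAM1 (YPL048W) at chrXVI:464401-465648 and HYP2 (YEL034W) at chrV:85676-86149. TEF4 (YKL081W) lies at chrXI:282891-284455 and is the only one of the 8 with an annotated intron, of 326 bp at chrXI:283096-283421.

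The copies of eEF1A and eEF2 are nearly identical within their coding sequence, so the stretch before the start codon is what assigns most reads to a copy. The TEF1 and TEF2 coding sequences differ at 2 of 1377 bases and those of EFT1 and EFT2 at 4 of 2529, and within each pair the predicted proteins are identical over 458 and 842 residues. The ends of the leaders, which are shown because they separate the copies, are printed from RefSeq R64 as the last 27 bases before the start codon, with the start codon in capitals.
TEF1: caatctaatctaagttttaattacaaaATG
TEF2: cggtcaacgaactataattaactaaacATG
EFT1: cccaagaatttttaataacagataaaaATG
EFT2: aaacacaaactataacataattgcaagATG
YEF3: gttcgaatccatcgataacattaaaagATG
TEF4: ttgattttggccctcgatagattcaagATG
CAM1: caagatcagatacagtttttgcacgccATG
HYP2: acacacaaataccaactcatatatacaATG
These stretches lie at chrXVI:700567-700596 for TEF1, chrII:477644-477673 for TEF2, chrXV:575071-575100 for EFT1, chrIV:1243203-1243232 for EFT2, chrXII:636753-636782 for YEF3, chrXI:282864-282893 for TEF4, chrXVI:464374-464403 for CAM1 and chrV:85649-85678 for HYP2.

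Aligned at the start codon without gaps, the last 27 bases were identical at 9 positions between TEF1 and TEF2 and at 11 between EFT1 and EFT2. A 75-bp read from the median 5′ end of the peak differed from every other place in the genome by at least 30 bases for TEF1, 33 for TEF2, 33 for EFT1 and 33 for EFT2. A read that begins there was therefore assignable to 1 copy. The share of A in the 27 bases was 44.4% in TEF1 and TEF2, 51.9% in EFT1 and HYP2 and 55.6% in EFT2, against a median of 40.7% over all genes, which is also the share in YEF3. CAM1 (29.6%) and TEF4 (22.2%) lay below that median, and HYP2 had no G in this stretch.

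The regions upstream of the peaks also differed between copies, and they are shown for TEF1 and the EFT1 and EFT2 pair from 300 bases before the start codon to the base before the most distant 5′ end of the start peak. Capitals mark matches to short motifs searched on both strands, among them the TATA box TATAAA, the core of the Rap1 site ACCCNNACA, the Reb1 site TTACCCG, and AAAATTTT, the core of the RRPE element found before many ribosome biogenesis genes, which reads the same on both strands.
TEF1: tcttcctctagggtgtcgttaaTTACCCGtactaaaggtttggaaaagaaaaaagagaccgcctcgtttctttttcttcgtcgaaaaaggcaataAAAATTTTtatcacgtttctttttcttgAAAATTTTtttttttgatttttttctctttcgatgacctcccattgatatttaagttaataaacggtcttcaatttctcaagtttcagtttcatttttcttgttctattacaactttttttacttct
EFT1: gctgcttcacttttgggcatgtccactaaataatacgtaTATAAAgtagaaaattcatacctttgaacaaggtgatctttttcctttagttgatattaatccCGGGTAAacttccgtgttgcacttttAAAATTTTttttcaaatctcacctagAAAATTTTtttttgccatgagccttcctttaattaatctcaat
EFT2: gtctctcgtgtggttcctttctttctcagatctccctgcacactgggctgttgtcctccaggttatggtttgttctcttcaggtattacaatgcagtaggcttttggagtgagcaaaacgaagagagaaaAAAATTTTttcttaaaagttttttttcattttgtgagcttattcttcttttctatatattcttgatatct
The stretches are chrXVI:700294-700543 for TEF1, chrXV:574798-574994 for EFT1 and chrIV:1242930-1243129 for EFT2.

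Within 500 bp of the start codon, AAAATTTT was found before 6 of the 8 genes and before 746 of 6000 genes with a full window, or 12.4%. The 6 were TEF1, EFT1, EFT2, YEF3, TEF4 and HYP2, and all of them held it within 300 bp, where 9.42% of genes did. In TEF1 it began 205 and 177 bases before the start codon, in EFT1 172 and 146, and in EFT2 170. The matches in YEF3, TEF4 and HYP2, with the motif in capitals, were as follows.
YEF3: ttgcgttggtgAAAATTTTttcgcttcctc
YEF3: ccttttgcatcAAAATTTTgtagaatatct
TEF4: attcattttaaAAAATTTTcaatttggtgt
TEF4: aaattgaaagaAAAATTTTtttcatcaaca
HYP2: cagtggtaataAAAATTTTtttcgtcgtcg
They lie at chrXII:636580-636609 and chrXII:636663-636692 for YEF3, chrXI:282475-282504 and chrXI:282741-282770 for TEF4, and chrV:85436-85465 for HYP2. TEF2 and CAM1 had no such match, and CAM1 had none of the motifs searched.

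The other motifs were spread over fewer of the genes. TATAAA was found before TEF2, EFT1 and YEF3, and in TEF2 and YEF3 it began 125 bases before the start codon. In YEF3 the reverse form overlapped it, beginning at base 127, and in TEF2 the reverse form also began at base 426. It was present before 60.5% of all genes, so 3 of 8 is not more than the background share. TTACCCG was found before TEF1 and EFT1 (10.1% of all genes). GCGATGAG, the PAC element of ribosome biogenesis genes, was found before none of the 8 and 4.83% of all genes. The Rap1 core was found before TEF2 and TEF4, at 435 and 389 bases from the start codon, and before 5.47% of all genes and 39.1% of 138 ribosomal protein genes. In TEF4 the match is on the reverse strand.
TEF2: ttcatgttgcACCCACACAtttatacaccc
TEF4: ttcaatttggTGTCTGGGTgaaacttttta
Capitals here mark the Rap1 core only. These stretches lie at chrII:477226-477255 and chrXI:282492-282521, and both are farther than 300 bp from the start codon.

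The libraries were similar in depth and were checked against markers of the strain. The depth recovered from the peak statistics was 6481550 to 8846010 aligned reads per library, of which 35.6 to 39.7% were on the forward strand, and the lowest pileup called there was 8.48 to 9.65 RPM (reads per 1000000 aligned reads of both strands). Between 2306 and 2588 genes had a start peak per library. Of 5 markers of mating type a, the type of BY4741, 3 had a start peak in all 8 libraries, and of 4 alpha markers none did, MF(ALPHA)1 having 1 in a single library. Of 4 genes that BY4741 lacks or holds only in part, MET17 and URA3 had no start peak, HIS3 had 1 in 6 libraries, and LEU2 had 1 in 4 of 4 episome and 0 of 4 integrated libraries.

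TEF2 had the highest start peak of the 7 genes in every library. Its height, the number of 5′ ends within a 200-bp extension scaled to RPM, was 11392 and 8805 RPM in HPRT1 episome replicates 1 and 2, and 13322 and 8053 RPM when that locus was integrated. For HPRT1R the episome replicates gave 7129 and 10992 RPM and the integrated ones 14369 and 14349 RPM. TEF2 alone thus held 0.713 to 1.44% of all aligned reads, and it ranked 8th to 15th among the genes with a start peak in a library. The mean was 11051 ± 2843 RPM (SD, n = 8), the lowest value being in an episome library and the next lowest in an integrated one.

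TEF1, the second eEF1A gene, was lower than TEF2 in all 8 libraries. With the HPRT1 locus as an episome its replicates stood at 2155 and 1700 RPM, and with that locus integrated at 2251 and 945 RPM. With HPRT1R the episome replicates stood at 1411 and 2002 RPM and the integrated ones at 1875 and 1973 RPM. Both the highest and the lowest of these values came from the HPRT1 integrated group, so the contexts overlapped fully. The mean was 1789 ± 430.5 RPM (SD, n = 8), and the rank ran from 58 to 130.

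The eEF2 genes stood lower. EFT1 was measured at 461 and 547 RPM in the HPRT1 episome replicates and at 402 and 488 RPM in those of HPRT1R. The integrated replicates gave 449 and 400.5 RPM for HPRT1 and 475 and 692 RPM for HPRT1R. Apart from the last value, the libraries lay within a narrow range, with a mean of 489 ± 94.5 RPM (SD, n = 8). EFT2 was at 391 and 197 RPM in the HPRT1 episome replicates and at 262 and 177 RPM in those of HPRT1R. The integrated replicates gave 243 and 596 RPM for HPRT1 and 488 and 308 RPM for HPRT1R. EFT2 was the most variable of the 7 genes, with a highest value 3.36 times the lowest and a coefficient of variation of 44.4%, against 19.3 to 25.7% for the other 6. Its lowest value still rested on 1149 reads.

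YEF3, for eEF3, lay on average between the eEF1A and eEF2 genes, though above TEF1 in HPRT1 integrated replicate 2. For HPRT1 its heights were 746 and 1136 RPM as an episome and 836 and 1217 RPM when integrated. For HPRT1R they were 885 and 874 RPM as an episome and 1291 and 1004 RPM when integrated. Replicates within the HPRT1 groups differed as much as the groups did, and the mean was 998 ± 197 RPM (SD, n = 8). HYP2, for eIF5A, was near TEF1, at 1823 and 1466 RPM with the HPRT1 episome and 1909 and 1680.3 RPM with HPRT1 integrated. With HPRT1R it was at 888 and 1809.8 RPM (episome) and at 1303 and 1690.4 RPM (integrated). HPRT1R episome replicate 1 was the lowest, and the mean was 1571 ± 340.4 RPM (SD, n = 8).

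CAM1, which encodes a gamma subunit of eEF1B, was at 289.9 and 529 RPM with the HPRT1 episome and 279 and 314 RPM with the HPRT1R episome. With the locus integrated it was at 459 and 377 RPM for HPRT1 and at 360.1 and 389 RPM for HPRT1R. The 4 integrated values lay inside the range of the episome values, and the mean was 375 ± 85.5 RPM (SD, n = 8). For comparison, the median start peak of a library was 58.3 to 65.7 RPM, and the 39 ribosomal protein genes without an intron that had a start peak in all 8 libraries had a median of 1923 RPM and a highest gene at 35325. All 7 elongation genes stood well above the median start peak, with mean percentiles from 86.3 for EFT2 to 99.6 for TEF2. Together they held 1.13 to 2.04% of the aligned reads.

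**Figure D1:**
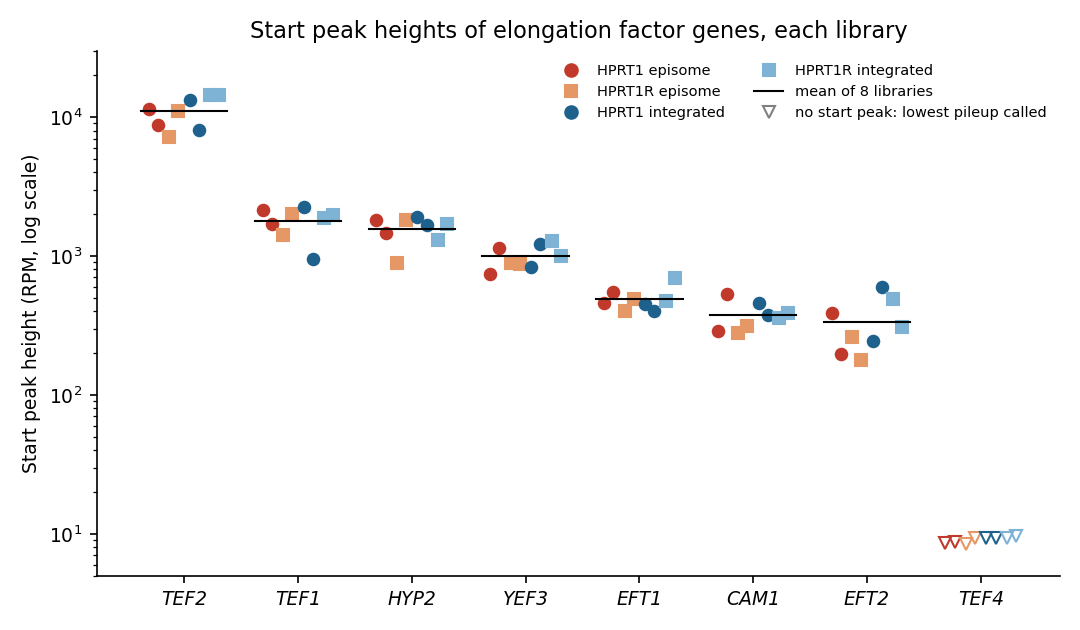
Start peak height of each gene in each library in RPM, on a log axis. Points are single libraries by group, black lines the mean of 8 libraries, and open triangles the lowest pileup called on the forward strand where TEF4 had no peak. TEF2 sits above all others in every library, and CAM1 and EFT2 overlap.

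The order of the levels by geometric mean was TEF2, TEF1, HYP2, YEF3, EFT1, CAM1 and EFT2. TEF2 was higher than TEF1, HYP2 than YEF3 and YEF3 than EFT1 in 8 of 8 libraries. TEF1 was higher than HYP2 in 7 of 8, but by 1.13 times on average, a log2 ratio of 0.18 ± 0.45 (SD, n = 8). EFT1 was above CAM1 in 7 of 8 libraries, by 0.40 ± 0.32 on the log2 scale (SD, n = 8), and CAM1 above EFT2 in 5 of 8, by 0.26 ± 0.75. TEF1 and HYP2, and CAM1 and EFT2, were thus not separated beyond their spread.

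The balance of the copies was compared within libraries, where scaling cancels. TEF2 exceeded TEF1 by 6.18 times on average, a mean log2 ratio of 2.63 ± 0.29 (SD, n = 8), with single libraries between 5.05 and 8.52. The ratio was above 1 in 8 of 8 libraries (two-sided exact sign permutation test, p = 0.00781, the smallest that 8 libraries allow; adjusted p = 0.03125 over the 4 paralogue tests that could be run). TEF2 held 83.5 to 89.5% of the summed height of the pair.

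Among episome libraries the TEF2 over TEF1 ratio was 5.29 and 5.18 for HPRT1 and 5.05 and 5.49 for HPRT1R. Among integrated libraries it was 5.92 and 8.52 for HPRT1 and 7.66 and 7.27 for HPRT1R. The 4 episome values were close together and all lay below the 4 integrated values. The log2 ratio was 0.47 lower in episome than in integrated libraries (2.39 ± 0.05 against 2.86 ± 0.22, SD, n = 4 each). By a two-sided exact permutation test over the 70 ways to divide the libraries this gave p = 0.0286, the smallest possible, and an adjusted p of 0.0571, which did not pass the threshold of 0.05. Without HPRT1 integrated replicate 2, the library with the highest ratio, the difference was smaller, at -0.40. The adjusted p by the same exact test was then 0.0417, the only one under 0.05 in a range of 0.0417 to 0.114 over the 8 libraries left out in turn. The TEF2 over TEF1 and EFT2 over EFT1 ratios took the same adjusted p there, because the paralogue tests were adjusted together. This value therefore does not mark a stronger context difference.

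The eEF2 copies were closer and more variable. Among episome libraries the EFT2 over EFT1 ratio was 0.848 and 0.359 for HPRT1 and 0.653 and 0.363 for HPRT1R. Among integrated libraries it was 0.541 and 1.49 for HPRT1 and 1.03 and 0.445 for HPRT1R. EFT2 was thus the lower copy in 6 of 8 libraries, and the contexts overlapped. The mean log2 ratio was -0.65 ± 0.74 (SD, n = 8), with p = 0.0469 in the exact sign permutation test and 0.0625 after adjustment. Without HPRT1 integrated replicate 2, where EFT2 was higher, it was -0.83 with an adjusted p of 0.0417 by the same exact test, again the only one under 0.05 in a range of 0.0417 to 0.125 over the 8 libraries left out in turn. The context difference of this ratio was -0.59 on the log2 scale (exact permutation test, p = 0.257, adjusted p = 0.257).

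**Figure D2:**
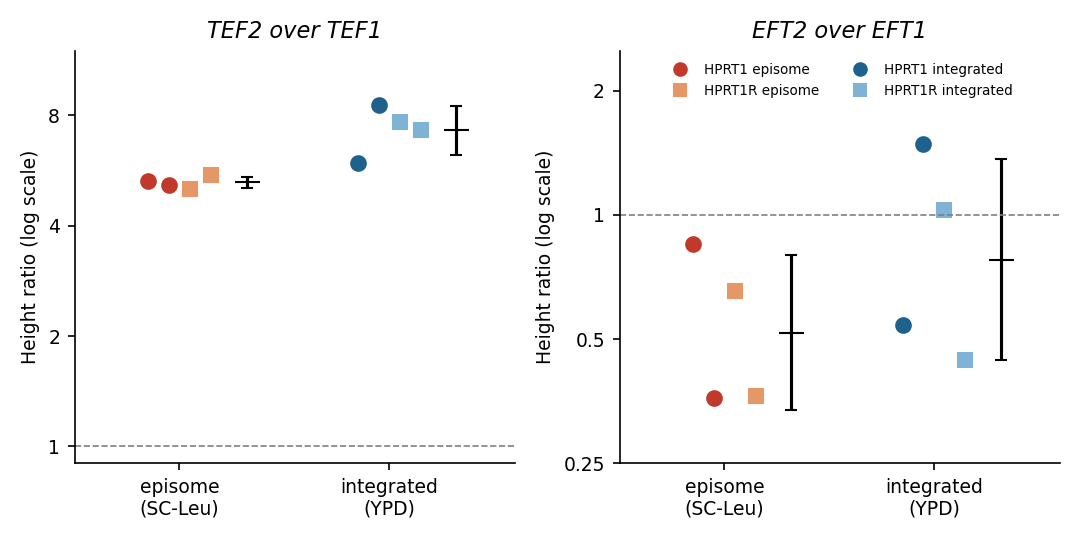
Height ratio of TEF2 over TEF1 and of EFT2 over EFT1 in each library, on a log2 axis, by context. Black bars give the mean of the log2 ratios ± 1 SD of 4 libraries and the dashed line equal heights. All TEF2 over TEF1 ratios lie above 5, with the episome libraries below the integrated ones, whereas EFT2 over EFT1 lies on both sides of 1.

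The deposited fold enrichment, the pileup over its local background, gave another picture of EFT2. The fold was 7.21 to 14.7 for EFT2 and 31.1 to 43.7 for EFT1, although their heights overlapped. The background is the mean over 10 kb around the peak, which includes the peak itself, so the fold cannot exceed 50. TEF1, TEF2 and HYP2 lay near that ceiling, at 46.7 to 50.0, with YEF3 at 40.6 to 45.9 and CAM1 at 31.4 ± 3.34 (SD, n = 8). The EFT2 start peak held 14.5 to 29.5% of the reads in its 10 kb, where the highest other peak on the strand, at 909 to 1539 RPM, was that of RPP2B, a ribosomal stalk protein gene singled out after its values were seen. For EFT1 the share was 62.7 to 88.3% and for TEF2 98.9 to 100.0%. On the fold, TEF2 and TEF1 differed by only 0.03 on the log2 scale, and EFT2 and EFT1 by -1.94, with adjusted exact p-values of 0.0521 and 0.03125.

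The distance from the 5′ end of the start peak to the start codon approximates the leader length. TEF1 began at 43 or 50 bp before the start codon and HYP2 at 68 or 71, in all 8 libraries. YEF3 began at 41 bp in 6 of the libraries, with 60 in HPRT1 episome replicate 1 and 43 in HPRT1 integrated replicate 2, and TEF2 between 36 and 53. These 5′ ends were nearly constant over libraries. EFT1 began 76 to 103 bp and CAM1 93 to 122 bp before the start codon. The 5′ end of EFT2 was the least fixed, from 44 to 100 bp, and differed as widely between replicates as between groups. The summit moved back by 100 bp was also computed, but it does not fix the start of a narrow peak. Extended over 200 bp, closely spaced starts give a flat top on which the summit can fall anywhere. In HPRT1 episome replicate 1 the TEF1 peak began 50 bp before the start codon and was 228 bp wide. Its summit lay 147 bp past that codon, so the moved summit fell past it too. The width less the 200-bp extension left all starts before it. By the moved summit EFT2 ran from 46 to 68 bp (SD 7.41 bp) and TEF1 had an SD of 49.7 bp. Over the 1190 genes with a peak in all 8 libraries the median distance of the 5′ end was 55 bp, with quartiles of 39 and 76.5. By this measure YEF3, TEF1 and TEF2 lay nearer the start codon than that median and CAM1 (98.5 bp) lay beyond the upper quartile. The summit-derived positions did not keep this order, with means of 31.6 bp for CAM1, 34.0 for YEF3 and 33.3 for TEF2. Because the summit can fall anywhere on a flat top, they do not rank the leaders.

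The width of a peak less the 200-bp extension gives the span of starts it implies. TEF2, EFT1, EFT2 and YEF3 had spans of at most 69 bp, with medians of 25.5, 38, 38 and 24.5 bp, near the median of 31 over all genes, and every implied start lay before the start codon. CAM1 was broad, with a median span of 150 bp that reached past its start codon in 7 of 8 libraries. HYP2 reached past it in 3 libraries and TEF1 in 2, up to 125 and 70 bp beyond. For TEF1, reads that begin after the start codon fall in sequence shared with TEF2, and their part in its height was not tested.

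**Figure D3:**
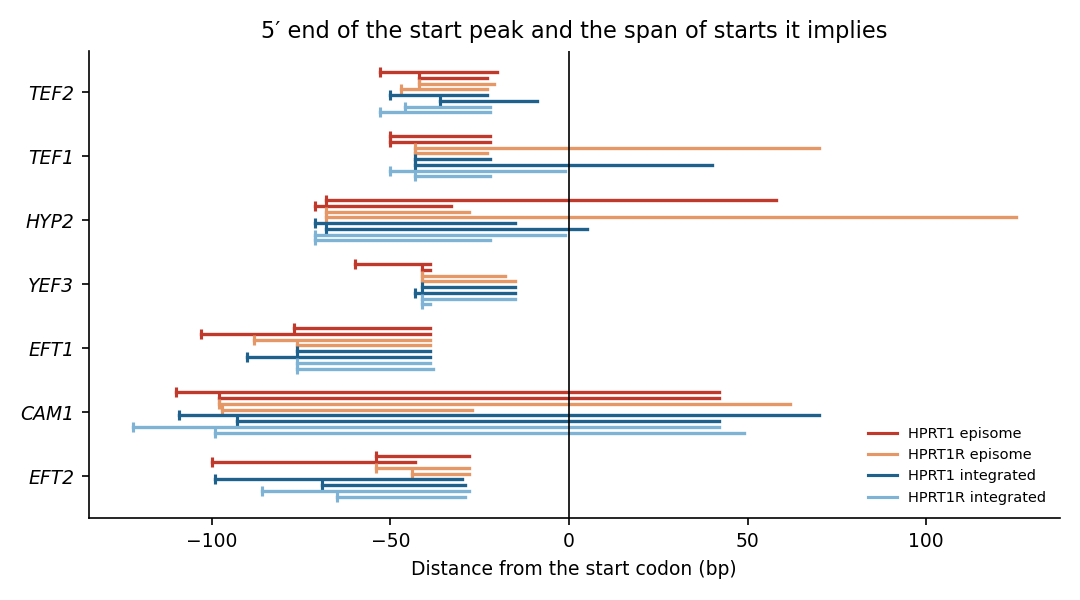
Position of the start peak of 7 genes relative to the start codon in bp, 1 line per library by group. The tick is the 5′ end of the peak and the line runs over the span of starts it implies, the width less 200 bp. TEF2, YEF3, EFT1 and EFT2 stay upstream of the start codon, and CAM1 crosses it in 7 libraries.

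The question of whether the genes differed between episome and integrated cultures was addressed with limma over all 1190 genes with a start peak in every library. Of these, 49 were called at an adjusted p under 0.05, or 4.12%, with 22 higher and 27 lower in episome libraries. None of the 7 elongation genes measured was called, at adjusted p between 0.241 and 0.911, and 1, TEF2, had an unadjusted p under 0.05, as had 18.6% of all genes tested. Heights are shares of a library, and the median over all genes was -0.13 on the log2 scale (episome minus integrated). The 7 genes are all on the forward strand. That strand held 35.6 to 37.9% of aligned reads in episome libraries and 38.5 to 39.7% in integrated ones. Scaling to the reads of both strands therefore gives these genes lower estimates than scaling to their own strand, and both are given below. In RNA from whole cultures, fewer cells that use a gene and less RNA of it per cell cannot be told apart.

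The largest estimates among the 7 were negative. EFT2 had a log2 difference of -0.65 (SE 0.33, adjusted p = 0.313 by limma), with a mean of 257 ± 96.5 RPM over the 4 episome libraries against 409 ± 162 over the 4 integrated ones (SD). TEF2 had -0.37 (SE 0.16, adjusted p = 0.241 by limma), with 9580 ± 1990 against 12523 ± 3019.9 RPM (SD, n = 4). TEF1 had 0.10 (SE 0.23, adjusted p = 0.885), so that of the eEF1A copies the lower one had the estimate above 0. YEF3, CAM1, HYP2 and EFT1 had -0.25 (SE 0.18), -0.21 (SE 0.23), -0.18 (SE 0.20) and -0.06 (SE 0.19). In all, 6 of 7 were below 0 with a median of -0.21, and 59.7% of all genes tested were below 0. The estimate of EFT1 turned positive when heights were scaled to the strand or to the library median. With strand scaling the estimates were 0.20 for TEF1, 0.04 for EFT1, -0.08 for HYP2 and -0.11 for CAM1. They were -0.15 for YEF3, -0.27 for TEF2 and -0.55 for EFT2, beside a median of -0.10 over all genes with that scaling. The episome and integrated values overlapped for all 7 genes, while over all genes 11.2% did not overlap.

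**Figure D4:**
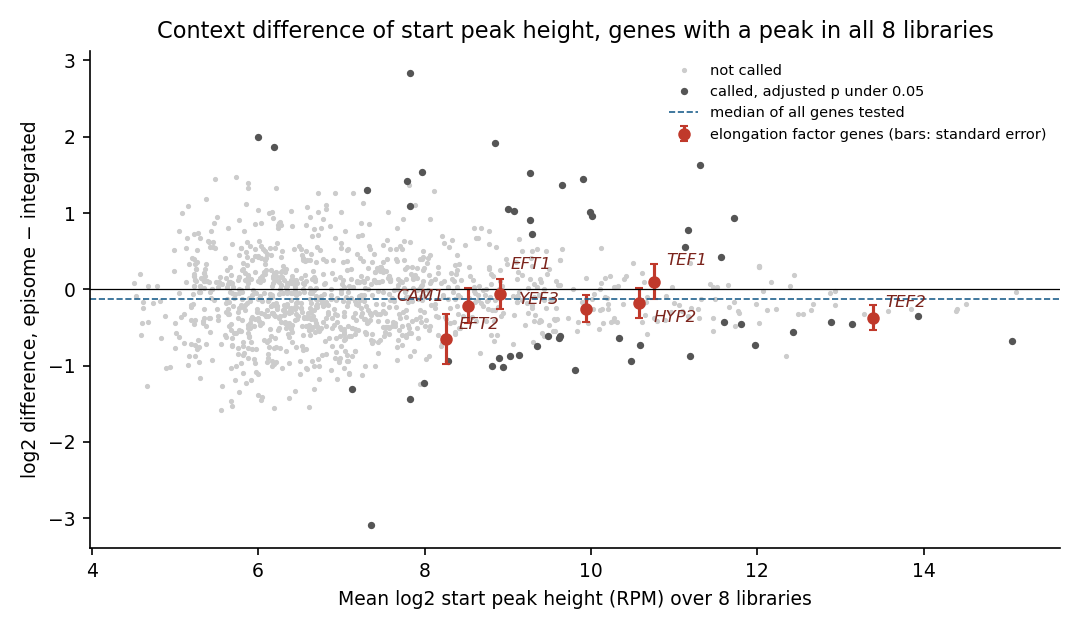
log2 difference of start peak height between episome and integrated libraries against the mean log2 height (RPM), for 1190 genes. Red points with standard errors are the 7 elongation genes, dark points the 49 genes called, and the dashed line the median of all genes at -0.13. The elongation genes lie between -0.65 and 0.10 among genes that were not called.

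The loci were compared in the same fit, where HPRT1R and HPRT1 strains of a context shared their medium. No gene of 1190 was called (0%), with 55 at an unadjusted p under 0.05, and the 7 genes had log2 differences (HPRT1R minus HPRT1) from -0.32 for HYP2 to 0.15 for TEF2. The interaction of context and locus likewise called 0 of 1190 genes (0%), with 104 at an unadjusted p under 0.05. The 7 estimates ran from -0.65 for TEF2 to -0.10 for HYP2, all below 0 as were 48.8% of all genes, with adjusted p of 0.605 or more by limma and standard errors of 0.33 to 0.66.

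TEF4 had no start peak in any library, nor in the lists called on the modified chromosome XI. CAM1, its alternative form, stood 32.9 to 60.1 times above the lowest pileup called anywhere on the forward strand. That pileup is not a limit measured at TEF4, so these values are not a ratio of CAM1 to TEF4. The TEF4 and CAM1 proteins share 64.5% of aligned residues. The only TEF4 peaks on its strand lay inside the gene, at 757, 1167 and 1219 bp after the start codon in 1 library each, with heights of 11.3 to 22.3 RPM. The first coding exon of TEF4 is 205 bp long. EFB1, the gene of the catalytic subunit of eEF1B, also has an intron, after a first coding exon of 80 bp, and also had no start peak in any library.

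Start peaks were less frequent at genes with an intron throughout the genome. Of 271 genes with an intron, 36.2% had a start peak in at least 1 library and 7.01% in all 8, against 65.3% and 20.4% of 5731 genes without. The shares were 32.4% and 8.82% of 34 genes with a first coding exon of 100 to 300 bp, the range that holds TEF4. They were 40.7% and 18.5% of 27 genes with a first coding exon over 300 bp. Among ribosomal protein genes, which are expressed at high levels, 29.2% of 89 with an intron had a peak in at least 1 library and 93.9% of 49 without, and 2.25% and 79.6% had one in all 8. The part of the intron in the missing peaks of TEF4 and EFB1 was not tested.

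**Figure D5:**
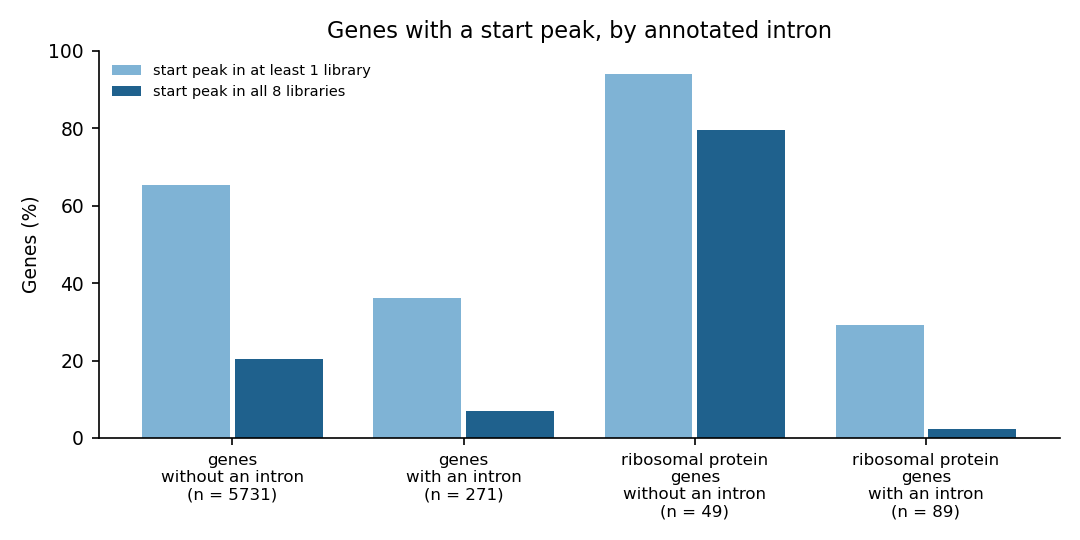
Percentage of genes with a start peak in at least 1 library (light bars) or in all 8 libraries (dark bars), by annotated intron, for all genes and for ribosomal protein genes. Genes with an intron had a peak less often in both sets, at 7.01% against 20.4% of all genes and 2.25% against 79.6% of ribosomal protein genes in all 8 libraries. The class nearest to TEF4, 34 genes with a first coding exon of 100 to 300 bp, is not drawn and stood at 8.82%.

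Other peaks within the 8 genes were few. There were 11 in all libraries together, at 11.3 to 35.5 RPM, 10 of them on the gene's strand. In HPRT1 episome replicate 1, EFT1 and EFT2 each had a peak 1314 bp after the start codon, at 19.8 and 21.6 RPM, in sequence that the copies share, so these reads cannot be assigned to either. Further peaks were called in EFT2 at 1538, 1551 and 2106 bp and in EFT1 at 1513 bp, each in 1 library. They too lie in coding sequence where the copies differ at only 4 of 2529 bases, and their assignment to a copy was not tested. YEF3 had 1 at 1491 bp, and HYP2 a single peak on the opposite strand at 237 bp. TEF1, TEF2 and CAM1 had none.

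Copies and partners of these factors were measured beside them. ANB1, the second eIF5A gene, with 90.4% of residues identical to HYP2, had a start peak in 6 libraries. It stood at 46.1 RPM in HPRT1 episome replicate 1 and 44.8 in HPRT1R episome replicate 1, while the integrated replicates gave 93.0 and 104.1 RPM for HPRT1 and 172 and 60.2 RPM for HPRT1R. It was called in 4 of 4 integrated and 2 of 4 episome libraries, and was below HYP2 wherever it was called. HEF3, the second eEF3 gene, with 83.8% of residues identical to YEF3, had none. STM1, a ribosome-associated protein, had the highest start peak of the partners, at 2367 to 4558 RPM, with a log2 context difference of -0.48 (SE 0.14, adjusted p = 0.0779 by limma).

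The enzymes that modify the factors stood far lower. Of 7 genes of diphthamide synthesis, which act on eEF2, 2 had a start peak in all 8 libraries, the higher being DPH5, a methyltransferase, at a mean of 70.7 RPM. Neither of the 2 genes of hypusine synthesis, which act on eIF5A, had one in all 8. Of 7 elongation factor methyltransferases 2 did, the higher being EFM7 at 86.3 RPM. Of 29 initiation factor genes 13 did, and CAF20, which binds the cap-binding protein eIF4E, was the highest at a mean of 2035 RPM. None of these genes was called between contexts. All 13 initiation factor genes had an estimate below 0, as had 59.7% of all genes tested. Their median was -0.50, against -0.13 over all genes and -0.21 over the 7 elongation genes, all scaled to the reads of both strands. Of 41 ribosomal protein genes measured in all 8 libraries, 34 also had an estimate below 0, with a median of -0.23 over the 41. Among them 2 were called, both lower in episome libraries, beside 4.12% called of all genes. Of 3 termination and recycling factor genes none had a start peak in every library.

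As a description of patterns, the gene outside the 8 whose log2 height followed a gene most closely over the 8 libraries was IES5 for TEF1 (Pearson's r = 0.93), THR1 for TEF2 (0.95), NPL6 for EFT1 (0.84), SNC2 for EFT2 (0.90), DBP3 for YEF3 (0.91) and ARO2 for HYP2 (0.94). Each is the highest of 1183 coefficients, the points share library depth and medium, and 6 different genes were named, none for both copies of a pair. These genes had geometric mean heights of 55.4 to 147 RPM, lower than any of the elongation genes.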

How the data were processed

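CAGE-seq libraries of 8 yeast cultures were analysed from the 32 peak lists deposited by the authors. Per the study's methods, only the 5′ read of 75-bp pairs was aligned with Bowtie2 2.2.9 to sacCer3 plus the synthetic sequence, and MACS2 2.1.0 called peaks per library and strand without a control and with duplicates kept. Amplification took 20 PCR cycles, and counts cover reads, not molecules. The lists deposited by the authors hold a peak score, the fold (a ratio of pileup to background), the −log10 p-value and q-value, and the summit position.

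Pileup and background were recovered from the fold and the −log10 p. The recovery was checked on simulated data and on the lists, where each of the 45253 pileups below 2000 lay no more than 0.05 from an integer. No native peak of 24946 ran past a chromosome end of R64. Depth was taken from the lowest background over a genome of 12000000 bp and a 200-bp extension, a step chosen after the lists were examined. Heights were scaled to 1000000 aligned reads (RPM), with no pseudocount.

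log2 heights of 1190 genes were tested with limma 3.58.1 (trend; R 4.3.3) with Benjamini-Hochberg adjustment. The fit was tested on simulated data with known changes. Copies were compared by exact permutation tests. The planned comparison of CAM1 with TEF4 was not run because TEF4 had no start peak, so adjustment covered 4 tests, not 6. Alternatives covered scaling, window, threshold, filter, reference and each library left out. The genes and lists were chosen with earlier results of these data known.

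Genes that could be named were the 8 members, EFB1, HEF3 and ANB1, the highest gene of each list, any listed gene called (ribosomal protein genes only as counts and medians), and the gene most alike to each member (for CAM1 not reported here, nor is the stretch upstream of TEF2). Sequences and gene models come from RefSeq R64, whose chromosome lengths hold all native peaks. Motifs and gaps of at least 20 bp between coding parts (introns) were found by text search.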

Additional observations from a re-analysis of the deposited data

Results flagged for a closer look

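In a search for libraries that stand apart from the 3 others of their context, on the log2 scale, 1 of 18 sets of values was marked, and chance marks about 1 in 20. TEF2 stood at 8053 RPM in HPRT1 integrated replicate 2, below the other integrated libraries at 13322 to 14369 RPM, with a gap of 0.869 of the range of the 4. TEF1, at 945 RPM, and EFT1, at 400.5 RPM, were also at their lowest there, whereas EFT2, at 596 RPM, was at its highest and YEF3, at 1217 RPM, at its next to highest. Without this library the log2 context difference of TEF2 was -0.55 (adjusted p = 0.0858 by limma). Its cause was not tested.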

How the results depend on the processing

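The 140 values of the context differences of the 7 genes under the alternatives included 8 of opposite sign and no call. EFT1 turned to 0.0404 with strand scaling and 0.0490 with median scaling. With single libraries left out, TEF1 ran from -0.21 to 0.41, EFT1 from -0.20 to 0.0715, CAM1 from -0.43 to 0.00355 and HYP2 from -0.44 to 0.0772. Of all genes, 0 were called between contexts with the authors' fold, 2 with limma without a trend and 21 with no filter, and 19 to 62 with single libraries left out (29 and 27 without HPRT1 episome replicates 1 and 2, 32 and 19 without HPRT1 integrated replicates 1 and 2, 21 and 20 without HPRT1R integrated replicates 1 and 2). The interaction called 0 or 1 gene. The replicate numbers did not pair the libraries, with correlations of deviations of -0.06 to 0.01. A replicate block gave 50 context calls and left the calls of the 7 genes as they were. For the context difference of the copies' ratio (-0.47 for TEF2 over TEF1 and -0.59 for EFT2 over EFT1), permuting only within replicate numbers as a block, chosen after seeing the data, gave unadjusted exact p-values of 0.0556 and 0.278.

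The mean log2 ratio of TEF2 over TEF1 was 0.0289 with the fold (adjusted exact p = 0.0521) and 2.56 to 2.67 with single libraries left out, where the adjusted exact p ran from 0.0417 to 0.0625 because 7 libraries allow only larger p-values. Its context difference then ran from -0.57 to -0.40, with adjusted exact p from 0.0417 to 0.114. EFT2 over EFT1 was -1.94 with the fold (adjusted exact p = 0.03125) and -0.83 to -0.54 with single libraries left out, with adjusted exact p from 0.0417 to 0.125. With the fold, mean percentiles were 99.3 for TEF2, 62.0 for EFT2, 92.7 for YEF3 and 97.6 for HYP2, and with strand scaling 99.7 for TEF2. Positions derived from the summit moved back by 100 bp lay on average 33.3 bp before the start codon for TEF2, 41.5 for EFT1 and 59 for EFT2. They lay 34.0 bp before it for YEF3, 31.6 for CAM1 and 13.9 for HYP2. For TEF1 they lay at -0.125 on average, with single libraries from 70 bp before the start codon to 48 bp past it. The order of the genes by this position differed from that of the 5′ ends, but the summit of a narrow peak does not fix its start. In a 300-bp window 0 of the 8 genes held the Rap1 core, against 3.12% of all genes.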
